A study of Mus musculus with 6 samples.

Results

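The genes described are 37 that act in protein folding in the endoplasmic reticulum (ER), in ER-associated degradation (ERAD) and in the unfolded protein response (UPR), of 55367 genes in the deposited expression table. They were chosen by gene symbol, from a list drawn up with earlier results of these data known, and all 37 had values. The study asked what the loss of Piezo1, a mechanically gated calcium channel, changes in leukemia stem cells (LSCs) of acute myeloid leukemia (AML). Each genotype, WT and Piezo1cKO, is represented by 3 RNA-seq libraries of sorted LSCs. WT stands for Piezo1 fl/fl littermates and Piezo1cKO for Mx1-cre; Piezo1 fl/fl mice, both on the C57BL/6J strain, both treated with pIpC and both aged 8 to 10 weeks. Lineage-negative bone marrow cells of both were transduced with a retrovirus that carries the MLL-AF9 fusion and YFP and were transplanted into irradiated mice, and LSCs, which the study defines by the surface pattern Lin-Sca-1-c-Kit+CD16/32hiCD34+YFP+, were sorted from the bone marrow. Mx1-cre is switched on by interferon, which pIpC induces, and acts in many cell types of the bone marrow. The sources used here do not say whether the 3 libraries of a group came from separate mice, so p-values measure the spread between these libraries, which may be technical.

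Proteins that enter the ER are folded by chaperones, glycosylated, and given disulfide bonds by isomerases and oxidases, while those that fail are pulled back to the cytosol and degraded. When unfolded proteins build up, the sensors IRE1 (gene Ern1), ATF6 and PERK leave the chaperone BiP (gene Hspa5) and start the UPR. IRE1 splices Xbp1 mRNA so that an active transcription factor is made, and ATF6 moves to the Golgi, where the proteases encoded by Mbtps1 and Mbtps2 release its active part. Splicing of Xbp1, cleavage of ATF6 and phosphorylation cannot be read from values per gene.

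The deposited values are on a log2 scale and shrunken gene by gene towards the mean, so that differences are smaller than those of the reads. The transform was undone, and recovered reads on genes ran from 14745610 to 15483614 in WT and from 14112121 to 15094247 in Piezo1cKO libraries. Below, levels are recovered reads normalised by library size, fold changes are of recovered reads with their standard error (SE) by limma-voom, and adjusted p-values are those of limma on the deposited values of all 16746 genes tested, unless another scale is named. Reads carried no molecular identifiers, so limits drawn from depth cover counting error only. Piezo1 itself had 101, 92.8 and 109 reads in the WT libraries and 36.6, 56.5 and 45.8 in the Piezo1cKO libraries, and its groups did not overlap. Markers of the sorted cells were present in each library. Kit ran from 2489 to 2590 reads in WT and from 3337 to 3510 in Piezo1cKO libraries. Hoxa9, a target of MLL-AF9, ran from 3331 to 3538 and from 3202 to 3672. The levels of such markers differed between the groups. Of 9 leukemia progenitor markers 4 were higher at an adjusted p under 0.05 by limma (Kit, Cd34, Flt3 and Ptprc). Another 3 were lower (Meis1, Mpo and Myb), while Hoxa9 and Hoxa10 did not pass. Flt3 ran from 620 to 662 reads in WT and from 1567 to 1653 in Piezo1cKO libraries.

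Most of the 37 genes were lower in Piezo1cKO LSCs. At an adjusted p under 0.05 by limma, 26 were lower (70.3%) and 5 higher (13.5%), against 31.4% lower and 31.6% higher among all genes tested. The other 6, Calr, Ero1lb, Derl3, Os9, Selenos and Ern1, did not pass. The median of the 37 fold changes was -0.25 on the log2 scale of recovered reads, that is 83.9% of WT, and -0.18 on the deposited scale, where the median of all genes tested was 0.0006. In 28 genes every Piezo1cKO library lay below every WT library and in 5 every one lay above, against 33.1% and 33.5% of all genes tested. Among genes with a mean deposited value of at least 5.6, which 36 of the 37 reached, 26 members were again lower and 5 higher, where the shares over all such genes were 36.4% and 34.2%. When the medians of the libraries were set equal, the calls over all genes moved from 5298 higher and 5258 lower to 6450 higher and 4214 lower, with a shift of the median to 0.023, and 24 members were lower and 6 higher. Past a log2 fold change of -1 on recovered reads lay 2 members, Xbp1 and Nfe2l1, and 12.2% of all genes tested on that scale. In bulk samples such as these, fewer cells of a type and less RNA per cell cannot be told apart.

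**Figure D1:**
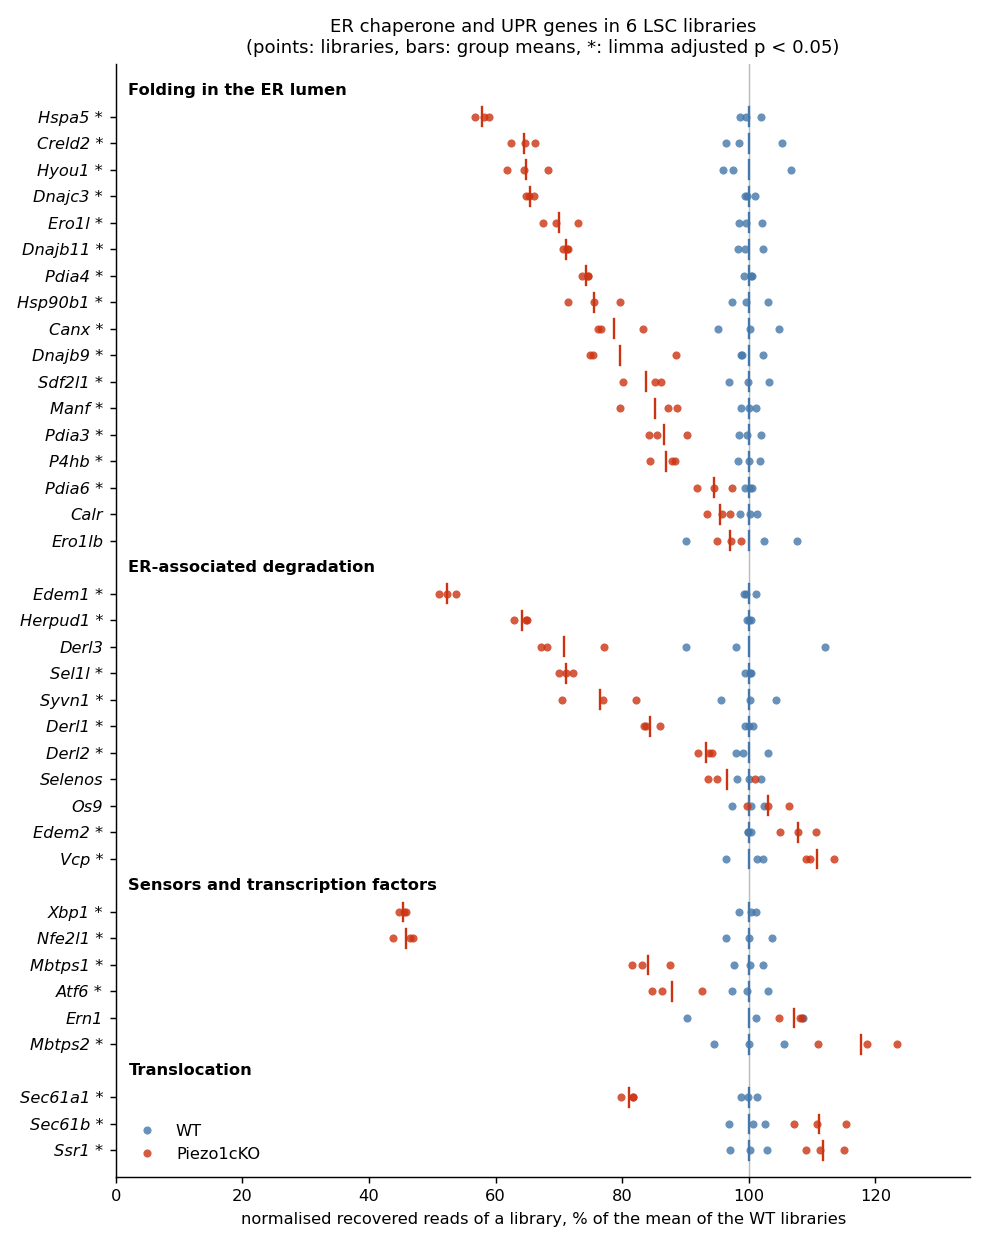
Normalised recovered reads of each of the 37 genes in each library, as a percentage of the mean of the WT libraries, by role. Points are libraries, vertical bars are group means and asterisks mark an adjusted p under 0.05 by limma. Piezo1cKO means run from 45.4% of WT for Xbp1 to 118% for Mbtps2.

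As a share of all recovered reads, the 37 genes together took up 1.80%, 1.79% and 1.79% in the WT libraries and 1.41%, 1.38% and 1.39% in the Piezo1cKO libraries. Hspa5 alone accounted for 0.408% ± 0.006 (SD, n = 3) of WT reads and 0.239% ± 0.0044 of Piezo1cKO reads. Genes of folding in the ER lumen went from 1.002% ± 0.0085 to 0.724% ± 0.009, ERAD genes from 0.436% ± 0.0041 to 0.361% ± 0.0014, and sensors with their transcription factors from 0.14% ± 0.0013 to 0.0723% ± 0.0002. The summed share of the 3 translocation genes went the other way, from 0.216% ± 0.0039 to 0.233% ± 0.005. Most of that share was Ssr1, while Sec61a1 of the same class was lower, at 81.1% of WT. In each of these 4 classes the 3 libraries of one group lay apart from the 3 of the other.

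Promoter sequences are shown because many ER chaperone genes share an element that the factors of the UPR bind. The ER stress element (ERSE) consists of CCAAT, 9 bases of any kind, and CCACG, and NF-Y binds the first part and ATF6 or XBP1 the second. The second form, ERSE-II, was searched as ATTGG and CCACG 1 base apart. Both strands of RefSeq promoter windows (GRCm38.p6, 250 bases before to 50 bases after each start) were searched. Of 32851 such windows 0.119% held an ERSE and 0.0365% an ERSE-II. Among the 32 of the 37 genes whose promoter was matched, 10 held an ERSE and 2 an ERSE-II. The element was defined in promoters of chaperones such as these, so its presence in some of them was known. The 8 genes called lower whose element lies before the start are shown 5′ to 3′ on the strand of the gene, with the 2 parts of each element in capitals and 8 bases on each side. An element on the opposite strand reads CGTGG and then ATTGG.
Hspa5, chr2:34772017-34772051, plus strand: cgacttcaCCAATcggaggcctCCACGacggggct
Hsp90b1, chr10:86705525-86705664, minus strand, 2 copies: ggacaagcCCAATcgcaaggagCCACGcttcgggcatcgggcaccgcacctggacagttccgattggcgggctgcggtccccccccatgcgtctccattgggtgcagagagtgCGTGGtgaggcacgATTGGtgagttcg
Canx, chr11:50325792-50325826, minus strand: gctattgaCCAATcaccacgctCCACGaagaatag
Pdia6, chr12:17266483-17266517, plus strand: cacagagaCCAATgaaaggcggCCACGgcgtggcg
Dnajc3, chr14:118937819-118937853, plus strand: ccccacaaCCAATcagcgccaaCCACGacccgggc
Creld2, chr15:88819512-88819546, plus strand: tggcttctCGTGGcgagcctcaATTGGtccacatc
Syvn1, chr19:6046524-6046558, plus strand: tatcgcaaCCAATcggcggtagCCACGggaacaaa
Herpud1, ERSE-II, chr8:94386369-94386395, plus strand: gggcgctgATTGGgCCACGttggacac

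All 12 genes with either element had 57.9% to 97.0% of WT reads: 9 were lower, none was higher by limma, and 3, Calr, Ero1lb and Derl3, did not pass. All 12 fold changes were below 0, on the deposited scale and on recovered reads. Their median fold change on the deposited scale was -0.28. Among the 20 matched genes without an exact element 12 were lower, 5 higher and 3 not called, with a median of -0.15 on the deposited scale and a range of 45.4% to 118% of WT. The 5 genes without a matched promoter (Hyou1, Manf, Derl1, Atf6 and Sec61a1) were all lower. Genes outside the 37 that held either element numbered 37, of which 17 were tested: 5 were lower, 4 higher and 8 not called, with a median of -0.0078 on the deposited scale. Of the 4 higher, Calr4 had means of 0.673 reads in WT and 8.08 in Piezo1cKO, and Xlr3b 1.31 and 82.6. 1700122E12Rik had 12.8 and 43.5, and Adcy3 596 and 724. The lower ones were Alg12 (110 and 42.8), Krtcap2 (1735 and 1314), Lgalsl (164 and 60.8), Rcl1 (925 and 702) and Xlr3a (62.1 and 0.664). Over all genes tested 31.4% were lower and 31.6% higher. Whether a change goes with the element was not tested. Dnajb11, with 71.1% of WT reads, held its ERSE-II after the start, and it is not printed. With 1 mismatch allowed in CCACG, 16 of the 32 genes and 0.998% of windows had an ERSE.

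**Figure D2:**
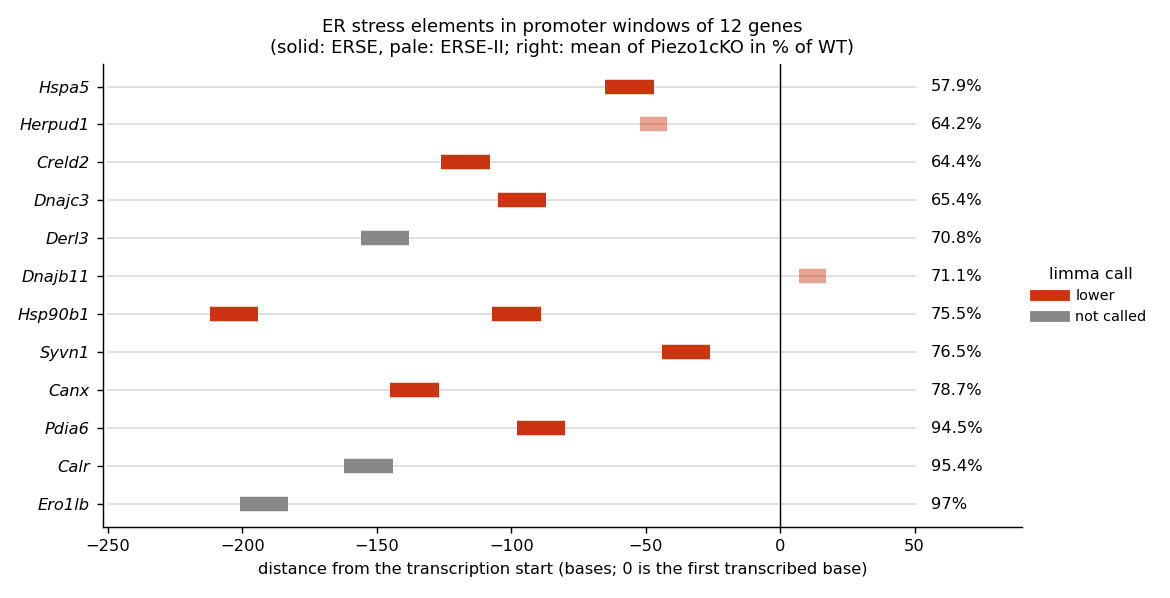
Position of ERSE (solid) and ERSE-II (pale) in the promoter windows of 12 genes, in bases from the transcription start, with the mean of the Piezo1cKO libraries in percent of the WT mean at the right. Colours give the limma call. Elements lie from -212 to 17 bases from the start, and the genes are ordered from 57.9% (Hspa5) to 97.0% (Ero1lb).

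The promoter of Hspa5 is shown at greater length because that gene held the largest share of the reads of the 37. Its 250 bases before the start (chr2:34771840-34772089, plus strand), with the ERSE in capitals, read as follows, and they also hold the 7 bases tgacgtg, an XBP1 or ATF6 motif called the UPRE that was found in 2.01% of all windows.
Hspa5 promoter: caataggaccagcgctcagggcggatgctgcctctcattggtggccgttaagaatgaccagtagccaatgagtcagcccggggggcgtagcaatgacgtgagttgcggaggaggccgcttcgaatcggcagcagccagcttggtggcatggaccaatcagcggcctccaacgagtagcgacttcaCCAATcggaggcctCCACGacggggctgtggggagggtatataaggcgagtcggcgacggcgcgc
Vcp and Nfe2l1 were the other members with this motif. The shorter letters CCACGT stood in the windows of 11 of the 32 genes and 8.31% of all windows. The CARE motif of ATF4 and CHOP, searched as TGATG, 1 base and AA, was found in Herpud1 and in 3.97% of windows. These matches describe letters and not binding.

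Hspa5 encodes BiP, the HSP70 of the ER lumen and the most abundant of the 37 transcripts per length. It lies at chr2:34771970-34777547. It had 61919, 59911 and 60454 reads in the WT libraries and 35772, 34448 and 35356 in the Piezo1cKO libraries. No Piezo1cKO library came near a WT library, and the mean fell to 57.9% of WT (log2 fold change -0.79 ± 0.018 SE, limma adjusted p = 9.91e-17). In recovered reads per kilobase of annotated exon, scaled to the same total in every library (TPM), Hspa5 stood at 3157 ± 61.9 (SD, n = 3) in WT and ranked 14 among all genes with a length, and in Piezo1cKO LSCs it stood at 1856 and ranked 39.

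BiP works with J proteins that stimulate its ATPase and with exchange factors that reload it. Hyou1, the large HSP70 that exchanges nucleotides on BiP, had 1163, 1275 and 1145 reads in WT and 816, 738 and 769 in Piezo1cKO libraries. Its groups did not overlap, and the mean was 64.8% of WT (log2 fold change -0.62 ± 0.055 SE, limma adjusted p = 1.72e-08). All 3 J proteins in the list were lower too. Dnajc3 (P58IPK), which also inhibits PERK, had 5504, 5596 and 5519 reads in WT and 3590.4, 3661 and 3615 in Piezo1cKO libraries. The 6 libraries fell in 2 narrow bands, at 65.4% of WT in Piezo1cKO (limma adjusted p = 6.62e-12). Dnajb11 (ERdj3), a soluble J protein that binds unfolded chains, was at 71.1%, and Dnajb9 (ERdj4), a J protein that BiP needs to hold IRE1 in check, was at 79.6%. Sdf2l1, which binds ERdj3 and keeps chains soluble, was at 83.8% (limma adjusted p = 9.07e-06).

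Hsp90b1 (GRP94), the HSP90 of the ER, carried 2 ERSE copies in the promoter printed above. It had 13078, 12360.4 and 12635 reads in WT and 10106, 9073 and 9578 in Piezo1cKO libraries, which do not overlap. The mean was 75.5% of WT (log2 fold change -0.41 ± 0.033 SE, limma adjusted p = 8.84e-09). Within a library, Hspa5 had 4.79 ± 0.0562 (SD, n = 3) times the reads of Hsp90b1 in WT and 3.68 ± 0.129 times in Piezo1cKO LSCs, and the ratios of the groups did not overlap.

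The lectin chaperones of the calnexin cycle, which hold glycoproteins, did not move alike. Canx (calnexin), the membrane-bound one, had 8361, 7599 and 7995 reads in WT and 6647, 6083 and 6120.4 in Piezo1cKO libraries. Each Piezo1cKO library was below each WT library, with a mean of 78.7% of WT (limma adjusted p = 3.93e-07). Calr (calreticulin), its soluble relative, had 3679, 3736 and 3777 reads in WT and 3486, 3619 and 3569 in Piezo1cKO libraries. These groups did not overlap either, but the mean was 95.4% of WT and the difference did not pass (log2 fold change on the deposited scale -0.05, limma adjusted p = 0.0868). Both promoters hold an ERSE.

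Oxidative folding needs protein disulfide isomerases and the oxidases that recharge them. Pdia4 (ERp72) had 6377, 6292 and 6364 reads in WT and 4736, 4672 and 4729 in Piezo1cKO libraries, a mean of 74.3% with wide separation (limma adjusted p = 5.77e-10). Pdia3 (ERp57), which works with calnexin and calreticulin, was at 86.6%, and P4hb (PDI), the founding isomerase, was at 86.9%. Pdia6 was at 94.5% (limma adjusted p = 0.0162), and it lost its call without WT replicate 2 or 3 or Piezo1cKO replicate 2 and when the medians of the libraries were set equal. Ero1l, the oxidase also induced by hypoxia, had 4237, 4091 and 4132 reads in WT and 3031, 2885 and 2803 in Piezo1cKO libraries. All Piezo1cKO values lay below WT, at 70.0% on average (log2 fold change -0.52 ± 0.035 SE, limma adjusted p = 9.93e-10). Its relative Ero1lb had 718, 600.5 and 683 reads in WT and 634, 659 and 648 in Piezo1cKO libraries, which overlap (limma adjusted p = 0.59). The ratio of Ero1l to Ero1lb reads was 6.25 ± 0.49 in WT and 4.49 ± 0.248 in Piezo1cKO LSCs.

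Creld2 and Manf encode small secreted or ER-resident proteins that ER stress induces. Creld2, with an ERSE on the opposite strand, had 2754, 3006 and 2810.2 reads in WT and 1781, 1892 and 1847 in Piezo1cKO libraries. The groups lay far apart, with a mean of 64.4% of WT (log2 fold change -0.63 ± 0.042 SE, limma adjusted p = 3.79e-10). Manf was at 85.2% of WT (limma adjusted p = 8.28e-05). Its annotated exons overlap those of Dcaf1, on the other strand, which had up to 854 reads, and the sources used here do not say whether strand was used in counting. The same holds for Syvn1 with Mrpl49 (up to 643 reads) and for Derl2 with Mis12 (up to 550 reads).

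Over all genes tested 31.4% were lower by limma, and 33.1% had every Piezo1cKO library below every WT library. Of the 17 folding genes 15 (88.2%) were lower and none was higher by limma. All 17 fold changes were below 0 on both scales, and the median was 78.6% of WT. In 16 the groups did not overlap, Ero1lb being the exception. The remaining genes split.

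ERAD begins with recognition of misfolded glycoproteins. Edem1, a mannosidase-like protein that trims them for disposal, lies at chr6:108828641-108859356 and had 7166, 7147 and 7281 reads in WT against 3873, 3673 and 3761 in Piezo1cKO libraries. No Piezo1cKO value was near a WT value, and the mean was 52.4% of WT (log2 fold change -0.93 ± 0.029 SE, limma adjusted p = 1.54e-14). Edem2, which makes the first cut in the same mannose trimming, had 3620.2, 3605 and 3604 reads in WT and 3891, 3992 and 3785 in Piezo1cKO libraries. Here the Piezo1cKO libraries were the higher ones, at 108% of WT (log2 fold change 0.11 ± 0.031 SE, limma adjusted p = 0.0105), a call that was lost without Piezo1cKO replicate 2 (adjusted p = 0.0574). The ratio of Edem1 to Edem2 reads was 1.98, 1.98 and 2.02 in the WT libraries and 0.995, 0.92 and 0.994 in the Piezo1cKO libraries. Os9, a lectin that hands glycoproteins to the ligase, was at 103% with overlapping groups (limma adjusted p = 0.211).

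The ligase of ERAD is HRD1, encoded by Syvn1, with its partner Sel1l and the scaffold HERP, encoded by Herpud1. Herpud1, at chr8:94386438-94395377, had 21064, 21003 and 20957 reads in WT and 13654, 13599.6 and 13212 in Piezo1cKO libraries. The WT libraries were almost equal and the Piezo1cKO libraries lay at 64.2% of them (log2 fold change -0.64 ± 0.02 SE, limma adjusted p = 3.34e-14). Sel1l had 2628, 2629.9 and 2607 reads in WT and 1893, 1835 and 1863 in Piezo1cKO libraries. It was at 71.1% of WT, also without overlap (limma adjusted p = 2.32e-09). Syvn1, with an ERSE close to its start, was at 76.5% (limma adjusted p = 6.60e-06).

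Derlins form part of the channel through which chains leave the ER. Derl1 was at 84.4% of WT (limma adjusted p = 6.73e-06) and Derl2 at 93.3% (limma adjusted p = 0.0165), and the latter lost its call when the medians of the libraries were set equal and without WT replicate 2 or Piezo1cKO replicate 2. Derl3 had 25.2, 23.2 and 28.9 reads in WT and 19.9, 17.6 and 17.3 in Piezo1cKO libraries. At that depth its mean of 70.8% of WT did not pass (log2 fold change -0.49 ± 0.25 SE, limma adjusted p = 0.112). Vcp, the ATPase that extracts chains from the channel and serves many other pathways, had 5031, 5285 and 5333 reads in WT and 5919, 5688 and 5724 in Piezo1cKO libraries. It was higher in each Piezo1cKO library than in any WT library, at 111% (limma adjusted p = 0.000799). Selenos, which recruits it, was at 96.5% with overlapping groups (limma adjusted p = 0.203). Of the 11 ERAD genes 6 were lower, 2 higher and 3 not called, with a median of 84.4% of WT. That is 54.5% lower and 18.2% higher, against 31.4% and 31.6% of all genes tested.

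Among sensors and transcription factors Xbp1 and Nfe2l1 had the largest fold changes, which lay within their SE of each other. Xbp1, of the IRE1 branch, at chr11:5520659-5525893, had 16446, 16013 and 16326 reads in WT and 7411, 7462 and 7275 in Piezo1cKO libraries. No value of one group was near the other, and the mean was 45.4% of WT (log2 fold change -1.14 ± 0.023 SE, limma adjusted p = 2.67e-17). Ern1, the kinase and nuclease that splices Xbp1, had 287, 322 and 345 reads in WT and 333, 345 and 344 in Piezo1cKO libraries. These overlap, at 107% (limma adjusted p = 0.248). There were 51.4 ± 5.2 Xbp1 reads for each Ern1 read in WT and 21.7 ± 0.544 in Piezo1cKO LSCs. Gene values do not tell spliced from unspliced Xbp1.

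Atf6 had 734, 710.5 and 694 reads in WT and 614, 603 and 659 in Piezo1cKO libraries. It was lower in each, at 87.8% of WT (log2 fold change -0.19 ± 0.055 SE, limma adjusted p = 0.0067), though not past the threshold after quantile normalization (adjusted p = 0.0534). The 2 proteases that cut ATF6 moved in opposite directions. Mbtps1 (S1P), which cuts first, had 987, 1032 and 1012 reads in WT and 839.9, 825 and 885 in Piezo1cKO libraries, at 84.1% (limma adjusted p = 0.000274). Mbtps2 (S2P), which cuts second, had 399.8, 358 and 379 reads in WT and 468, 420.1 and 449.8 in Piezo1cKO libraries, at 118% (limma adjusted p = 0.00556). In neither did the groups overlap, and the ratio of Mbtps1 to Mbtps2 reads was 2.67 ± 0.207 in WT and 1.91 ± 0.0987 in Piezo1cKO LSCs.

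Nfe2l1 (NRF1), a factor held in the ER membrane that is released by VCP and induces proteasome genes, lies at chr11:96817414-96829968. It had 2088, 2168 and 2245 reads in WT and 949.6, 1007 and 1019 in Piezo1cKO libraries. No Piezo1cKO library was near a WT library, and the mean was 45.8% of WT (log2 fold change -1.13 ± 0.045 SE, limma adjusted p = 2.09e-13). Of these 6 genes 4 were lower (66.7%), 1 higher (16.7%) and 1 not called, against 31.4% lower and 31.6% higher among all genes tested.

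Chains enter the ER through the SEC61 channel. Sec61a1, its pore subunit, had 5360, 5504 and 5427 reads in WT and 4435, 4437 and 4337 in Piezo1cKO libraries. It was lower in each, at 81.1% of WT (limma adjusted p = 1.38e-07). Sec61b, a small subunit of the same channel, had 1233, 1283 and 1306 reads in WT and 1410.3, 1469.9 and 1366 in Piezo1cKO libraries. It was higher in each, at 111% of WT (limma adjusted p = 0.00796), so that there were 4.26 ± 0.0973 Sec61a1 reads per Sec61b read in WT and 3.11 ± 0.0832 in Piezo1cKO LSCs. Ssr1 (TRAP alpha), of the translocon-associated complex, had 26260.1, 24762 and 25574 reads in WT and 29358, 27817 and 28381 in Piezo1cKO libraries. It was at 112% (limma adjusted p = 2.15e-05), but after quantile normalization of the deposited values its fold change was -0.04 on that scale (limma adjusted p = 0.0261).

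Ratios within a library do not depend on the scaling between libraries. For the 7 pairs compared (Hspa5 to Hsp90b1, Ero1l to Ero1lb, Edem1 to Edem2, Derl1 to Derl2, Xbp1 to Ern1, Mbtps1 to Mbtps2, Sec61a1 to Sec61b) the 3 Piezo1cKO ratios all lay below the 3 WT ratios. Each had p = 0.1 in a two-sided exact permutation test, the smallest that 3 against 3 allows, and 0.1 after Benjamini-Hochberg adjustment. The pairs were picked as partners or close relatives after the values were known, so these p-values cannot support a difference. Which gene of a pair was written first sets the direction. The share of other pairs whose groups lie apart was not computed. Among single genes tested, 33.1% had groups apart and lower and 33.5% apart and higher.

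Known targets of ATF6 and of XBP1, as listed from general knowledge and with many genes responding to both, were set side by side. All 13 genes listed under ATF6 (Hspa5, Hsp90b1, Calr, Pdia4, Hyou1, Herpud1, Creld2, Sdf2l1, Manf, Sel1l, Syvn1, Derl3 and Xbp1) had Piezo1cKO libraries below all WT libraries. Of these 11 were lower by limma (84.6%) and 2, Calr and Derl3, did not pass, with a median of 71.3% of WT. The 12 genes listed under XBP1 were Dnajb9, Dnajb11, Dnajc3, Edem1, Edem2, Derl1, Derl2, Pdia6, Sec61a1, Sec61b, Ssr1 and Os9. Of these 8 were lower (66.7%), 3 higher (25.0%) and 1 not called, with a median of 88.7%. In 8 every Piezo1cKO library lay below every WT library. Over all genes tested 31.4% were lower and 31.6% higher, and 33.1% had every Piezo1cKO library below every WT library. Whether the lists differ was not tested.

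Levels per length covered a wide range, from 3157 TPM for Hspa5 to 2.84 TPM for Derl3 in WT. After Hspa5 came Herpud1 with 1979 ± 8.66 and Xbp1 with 1100.2 ± 18.6 TPM (SD, n = 3). Sdf2l1 with 958 ± 27.7 and Os9 with 951 ± 21.5 did not differ beyond their spread, nor did Pdia6 with 585 ± 2.56 and Pdia4 with 581 ± 6.05. In Piezo1cKO LSCs Herpud1 was at 1289 TPM, while Os9, at 994, stood above Xbp1, at 507. The sensors were low: Atf6 had 17.0 and Ern1 8.55 TPM in WT.

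**Figure D3:**
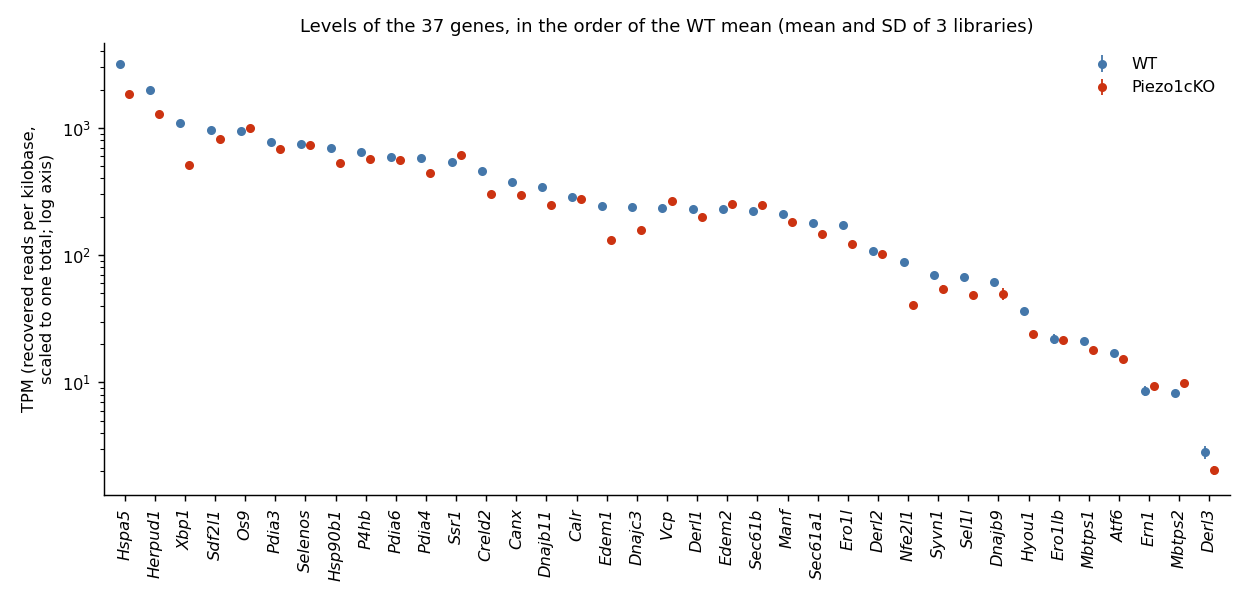
Level of each of the 37 genes in TPM (recovered reads per kilobase of exon, scaled to one total), on a log axis, as mean and SD of 3 libraries per group, in the order of the WT mean. Hspa5 (3157 in WT, 1856 in Piezo1cKO) and Herpud1 (1979 and 1289) stand highest, and the gap between groups is widest for Xbp1 and Nfe2l1.

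Other genes of the same system were listed by function, with earlier results of these data known. Of the 8 genes of the PERK arm 5 were lower (62.5%), none was higher by limma and 3 were not called. Their median was 70.8% of WT, and 31.4% of all genes tested were lower. Trib3, a pseudokinase induced by ATF4 and CHOP, had 1556 ± 46.3 (SD, n = 3) reads in WT and 17.6 ± 7.81 in Piezo1cKO LSCs, which is 1.13% of WT. Ddit3 (CHOP) was at 27.4% and Atf4, the factor whose translation PERK raises, at 62.4%. The other 2 lower genes were Eif2ak3, which encodes PERK and had 59.1% of WT reads, and Eif2s1, the alpha subunit of eIF2 that it phosphorylates, with 80.4%. The phosphatase subunit Ppp1r15a (GADD34) had 1099 ± 13.1 and 1100.4 ± 28.9 reads, without a call (limma adjusted p = 0.976), and it and its relative Ppp1r15b (adjusted p = 0.684) were the PERK arm genes with fold changes above 0.

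Over all genes tested 31.4% were lower and 31.6% higher. A further 34 tested genes of ER folding comprised 19 lower (55.9%) and 7 higher (20.6%), with a median of 88.4% of WT. Those with the largest changes on the deposited scale, by which genes of these lists were named, were Dnajc25, a DNAJ-family gene, at 58.3%, Prdx4, the ER peroxiredoxin, at 155%, and Mcfd2, a partner of the cargo receptor LMAN1, at 69.6%. Of 35 further ERAD genes 18 were lower (51.4%) and 13 higher (37.1%). Ube2j2, an ER-anchored ubiquitin-conjugating enzyme, was at 49.4%, Faf1, a VCP cofactor, at 56.7%, and Edem3, the third Edem gene, at 175%. The Edem family thus had members in both directions. Of 35 further genes of translocation and glycan transfer 18 were lower (51.4%) and 5 higher (14.3%). Stt3b, a catalytic subunit of oligosaccharyltransferase, was at 48.6%, Spcs3, of signal peptidase, at 72.5%, and Tram2 at 156%. Among 10 other ER stress factors 2 were lower, 1 was higher and 7 were not called. Creb3l3 was at 61.4%, Creb3l1, another factor anchored in the ER, at 147%, and Tmbim6, an inhibitor of cell death in the ER, at 92.1%.

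Chaperones outside the ER were counted in the same way. Of 30 tested cytosolic chaperones and cofactors 17 were lower and 4 higher, with a median of 88.9% of WT. Bag1, an exchange factor of HSP70, was at 36.8%, Hspa4l at 61.0% and Hsph1, of the same HSP110 family, at 70.5%. Of 13 mitochondrial chaperones and proteases 10 were lower and 1 was higher, with a median of 89.6%. Dnaja3, a mitochondrial J protein, was at 55.9%, Hspa9 (mortalin) at 66.9% and Hspd1 (HSP60) at 73.2%. The shares called lower, 56.7% and 76.9%, stand beside 88.2% of the 17 folding genes, 70.3% of the 37 genes and 31.4% of all genes. The medians were 88.9% and 89.6% of WT against 78.6% for the folding genes and 83.9% for the 37. Whether the lists differ was not tested.

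**Figure D4:**
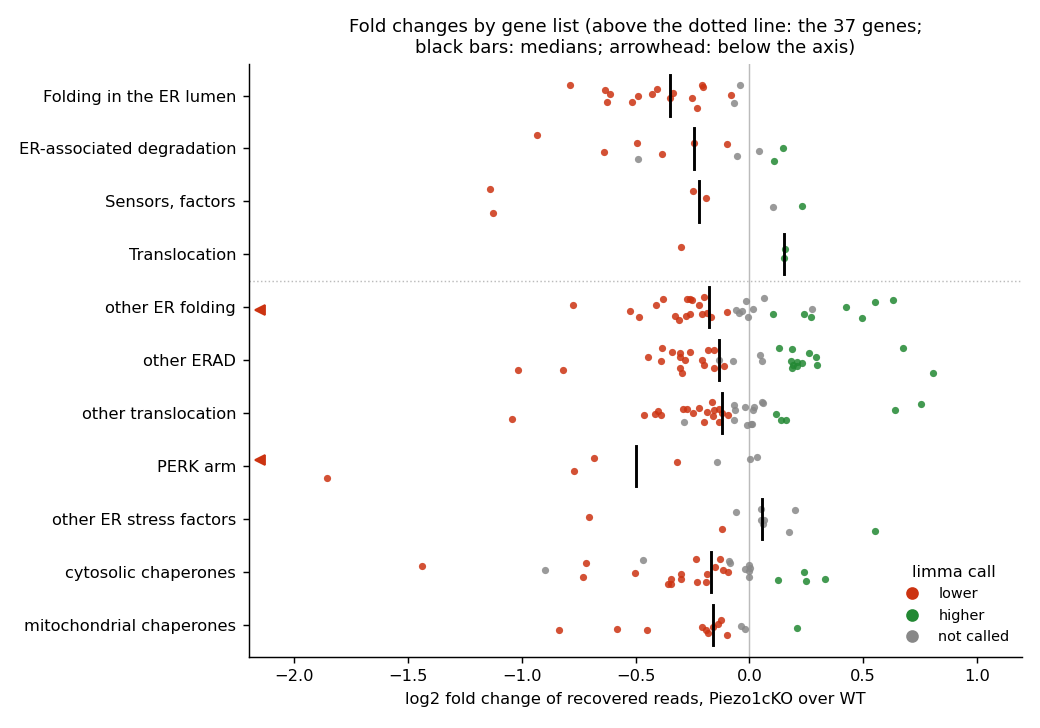
Log2 fold change of recovered reads, Piezo1cKO over WT, of each tested gene by list, with the limma call as colour and the median as a black bar. The 4 upper rows are the 37 genes, and arrowheads stand for 2 genes below the axis, Trib3 and Uggt2, of which the latter had at most 1 read in any Piezo1cKO library. Every list but translocation and other ER stress factors has its median below 0.

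Secretory cells express many of the 37 genes strongly, so markers of other cells were read in the same libraries. Of 10 plasma cell markers 6 had over 3 reads in some library, and the summed level of the list ran from 10716 to 11168 in WT and from 20109 to 20426 in Piezo1cKO libraries, nearly all of it Ighm. Tnfrsf17, which marks plasma cells, was listed at 0 in every library, and Mzb1 and Irf4 had at most 3 reads in any. Of this list 2 genes, Ighm and Sdc1, were higher by limma and 1, Jchain, was lower. Sdc1 had 45.2 to 50.5 reads in WT and 127 to 141 in Piezo1cKO libraries. Jchain had 26.0 to 38.8 reads in WT and 4.87 to 15.7 in Piezo1cKO libraries. B cell markers (3 of 6 over 3 reads) summed to 1537 to 1597 and 2415 to 2638, nearly all of it Cd79b. Neutrophil markers (6 of 7 over 3 reads) summed to 2479.6 to 2506 in WT and 875 to 919 in Piezo1cKO libraries, with Ly6g at or below 1 read. Of this list 5 genes were lower, but Mmp8 was higher, from 37.8 to 47.1 reads in WT against 623 to 651 in Piezo1cKO libraries. Mast cell or basophil markers (5 of 5) summed to 1999 to 2107 and 7663 to 7884, most of it Cpa3 and Gata2. Cpa3 had 533 to 594 reads in WT and 4864 to 5213 in Piezo1cKO libraries. Of this list 4 genes were higher, while Fcer1a, with at most 17.55 reads, was not called. Erythroid markers (6 of 6) summed to 111 to 117 and 28.5 to 42.8, with 2 lower. T cell markers (2 of 6) summed to 7.7 to 15.5 and 13.2 to 17.8, with 1 higher and 1 lower. Markers of monocytes or macrophages (4 of 5) summed to 13632 to 14007 and 7753 to 8181. That fall lay in Cd14, with 5936 to 6449 reads in WT and 417 to 490.3 in Piezo1cKO libraries, while Ly6c2, Csf1r and Adgre1 were not called. Mpo, a granule enzyme of myeloid progenitors, fell from at least 278891 to at most 161469.0 reads. The part of these shifts in the values of the ER genes was not tested.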

How the data were processed

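RNA-seq libraries of 3 WT and 3 Piezo1cKO LSC samples were analysed. The authors used fastp 0.20.1 for trimming, HISAT2 2.2.1 for mapping to GRCm38, featureCounts 2.0.1 for counting and DESeq2 1.28.1 for normalization. The deposited log2 values of 55367 genes had the form of a regularized log, 28965 genes being listed at 0 throughout. Use of strand in counting is not given in the sources used here.

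The design provided for log2 values, which the table held. Genes with a mean of at least 1 (16746) went into limma 3.58.1 (R 4.3.3), lmFit and eBayes with a trend and without covariates, and Benjamini-Hochberg adjustment over all of them; a call had an adjusted p under 0.05. The transform was undone by fitting size factors and shrinkage until values were whole. Where a gene averaged 1 read or more, 92.7% of values came within 0.1 of a whole number, against 23.1% with the shrinkage 10% off. The share was 85.8% from 1000 to 10000 reads, where most of the 37 genes lie, and 59.6% above. In both ranges such a deviation is a small part of the value. Recovered reads of 17352 genes with at least 10 reads in total went through limma-voom. Both steps were tested on simulated data made with the same transform, which cannot show that the deposited values follow it. All per-sample columns were used.

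Members and lists, roles and ATF6 or XBP1 targets included, were chosen with earlier results of these data known, from general knowledge. All 37 genes were named, and of each other list the 3 non-overlapping genes with the largest changes on the deposited scale and a mean of at least 50 reads. Eif2ak3, Eif2s1, Ppp1r15a, Ppp1r15b, Uggt2, the marker genes quoted and the pairs for ratios were picked after their values were seen. Gene coordinates and exon lengths came from GENCODE M21 (GRCm38), and promoters from RefSeq (GRCm38.p6), where Ero1l and Ero1lb were matched through synonyms. Levels per length (TPM form) used recovered reads. Alternatives were other filters, scalings, a replicate block, each library left out, recovered reads and fold thresholds. The rest used Python 3.11.15 with numpy 2.4.6, scipy 1.17.1, pandas 2.3.3 and matplotlib 3.10.9.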

Additional observations from a re-analysis of the deposited data

How the results depend on the processing

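Of the 37 genes, 28 stayed on their side of the threshold under each of up to 15 alternatives, although the uncalled Ero1lb had a fold change above 0 after quantile normalization (0.0024) and without WT replicate 1 (0.0087), and 9 (Calr, Pdia6, Edem2, Derl2, Derl3, Os9, Selenos, Atf6 and Ssr1) changed in 15 of 554 gene and alternative pairs, of which 9 lost the call, 5 gained it and 1, Ssr1 after quantile normalization (-0.042), reversed. That normalization left 1 of 3 translocation genes higher and 2 lower. With a threshold of 1 on the deposited log2 fold change, 0 of the 37 were higher and 0 lower, as in each role, where at an adjusted p alone limma called 5 and 26. On recovered reads past 1, 0 were higher and 2 lower, both of them sensors or transcription factors, and 0 folding, 0 ERAD and 0 translocation genes passed in either direction. Past 0.5 on recovered reads, 0 were higher and 9 lower, namely 5 folding, 2 ERAD and 2 sensor or factor genes and 0 translocation genes. The deposited values are shrunken, so their fold changes are smaller by construction. Leaving out each library in turn gave 1 to 2 higher ERAD genes, with 1 without Piezo1cKO replicate 2. With 1 mismatch allowed, 16 genes rather than 10 held an ERSE. Same-numbered libraries of the groups correlated at 0.195, 0.161 and 0.0696 in their deviations, and each library correlated best with its own number. The labels do not say whether the numbers mark pairs, and the main fit did not take them as pairs. Whether they do was not tested. With the replicate block, 6 genes were higher and 27 lower. Depth limits Derl3, with under 30 reads in each library.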

Other observations

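Among the 37 genes outside the list with an ERSE or ERSE-II in the promoter window, the 5 called lower by limma on the deposited values included Alg12, a mannosyltransferase that builds the glycan precursor in the ER, with 110 ± 2.62 (SD, n = 3) reads in WT and 42.8 ± 3.05 in Piezo1cKO LSCs. Krtcap2, an accessory subunit of oligosaccharyltransferase, had 1735 ± 19.9 and 1314 ± 42.3 reads, and its groups did not overlap. Nucb1, a calcium-binding protein of the secretory pathway, also held an element and had 5095 ± 181 and 5223 ± 119 reads. These 3 genes were picked after their values were seen, for their place in the secretory pathway.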
